A study of Mus musculus with 12 samples.

Results

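The chemokine system of the mouse reproductive tract was examined through 59 genes for chemokine ligands and their receptors. The rule takes genes by symbol, as every Ccl, Cxcl, Ccr and Cxcr gene with a number and, where present, a final letter, together with Cx3cl1, Cx3cr1, Xcl1, Xcr1, Pf4 and Ppbp. The female libraries list 31618 genes and the male libraries 31669, and the 59 chemokine genes are in both. Of these, 46 were measured in the female set of 16595 measured genes and 40 in the male set of 16658, with 37 measured in both. A gene counted as measured with 20 normalised reads in any library, or where its level was too high or too irregular to be read back from the deposited values. A gene could thus pass through a single library in which it was high.

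Chemokines are small secreted proteins that bind G protein-coupled receptors on leukocytes and direct their migration along concentration gradients. CXC ligands with an ELR motif act through CXCR2 and recruit neutrophils, most CC ligands recruit monocytes, eosinophils and lymphocytes, and a homeostatic group (CXCL12, CXCL13, CCL19, CCL21) positions lymphocytes in lymphoid tissue. In the uterus, chemokines are known for bringing leukocytes into the endometrium over the reproductive cycle and in early pregnancy.

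The libraries were made from mice of a mixed CD1/129 background aged 3 to 7 months, with the RNA of 3 animals pooled in each and 1 library per tissue and genotype, and the females were collected in diestrus. The uterus and the vas deferens were each taken from 5 genotypes. Besides WT these were Hoxa9,10,11-/- (written Hoxa-/-), Hoxd9,10,11-/- (Hoxd-/-), Hoxa9,10,11-/-d9,10,11+/- (Hoxa-/-d+/-) and Hoxa9,10,11+/-d9,10,11-/- (Hoxa+/-d-/-). Hoxa-/- and Hoxa-/-d+/- are called the Hoxa homozygotes, and Hoxd-/- and Hoxa+/-d-/- the Hoxd homozygotes. The kind of allele is not stated in the labels, so Hox transcript levels do not check them. The WT oviduct and the WT caudal epididymis complete the 12 libraries. With 1 library per group no difference has a replicate check, and no error or p-value is given. Unless stated otherwise, a value is a log2 difference, mutant minus the WT of its tissue, and a gene is called higher or lower at 2-fold, which is 1 log2 unit. Where 4 values follow each other they are for Hoxa-/-, Hoxd-/-, Hoxa-/-d+/- and Hoxa+/-d-/- in that order, and 5 values begin with WT.

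The relative depth recovered from the values spanned 1.34-fold among the female and 1.92-fold among the male libraries, with the WT vas deferens the deepest of its set. Hoxa11 stood at -2.74 and -3.11 in the Hoxa-/- and Hoxa-/-d+/- uterus, with -2.29 and -3.20 in the vas. Hoxd11 stood at -0.73, -0.59, -1.35 and -1.58 in the 4 mutant uteri and at -0.88, -2.47, -1.45 and -1.17 in the vas, so in the uterus it was no lower in Hoxd-/- than in Hoxa-/-. The other targeted genes were not all low, with Hoxd10 at 0.57 in the Hoxd-/- uterus and Hoxa9 at 0.27 in the Hoxa-/-d+/- uterus. The WT and Hoxa-/- uterus and the WT vas deferens were sequenced in lane 1 of a shared run. The other 3 uteri and the Hoxa-/-, Hoxd-/- and Hoxa-/-d+/- vas deferens were in its lane 2, and the oviduct, epididymis and Hoxa+/-d-/- vas deferens in a separate run. Apart from Hoxa-/- in the uterus, no library shared a lane with the WT it is compared with, so lane and genotype, or lane and segment, cannot be told apart in any other comparison with WT. Of the tissue markers, 3 of 4 measured oviduct markers were higher in the oviduct than in the uterus and 5 of 5 vas deferens markers were lower in the epididymis than in the vas deferens.

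In the uterus, many chemokine genes stood above WT in both Hoxd homozygotes, most in Hoxa+/-d-/-, while in Hoxa-/- genes above and below WT were closer in number. The Hoxd-/- uterus was higher than WT for 23 of the 46 measured chemokine genes (6% of all measured genes were) and lower for 2 (5.62% of all). The Hoxa+/-d-/- uterus was higher for 26 (7.79% of all) and lower for 4 (6.22% of all). The Hoxa-/-d+/- uterus was higher for 14 (8.47% of all) and lower for 3 (6.63% of all), and the Hoxa-/- uterus higher for 12 (5.91% of all) and lower for 7 (7.12% of all). The median difference over the 46 genes was 0.95 in the Hoxd-/-, 1.32 in the Hoxa+/-d-/-, 0.39 in the Hoxa-/-d+/- and 0.06 in the Hoxa-/- uterus, beside medians over all measured genes from -0.00083 to 0.00095. By the recovered reads, Ccl3, Ccl7, Ccl12, Ccl22, Ccl24, Ccr3, Ccr7, Cxcl2, Cxcl13 and Ppbp did not reach the minimum in WT. They entered the counts through libraries in which they were higher, which favours a call above WT. The shares over all measured genes use the same minimum and serve for all later counts against the WT uterus. All 4 comparisons share the WT library. WT was the lowest of the 5 uteri for 21 of the 46 genes, against 17.0% of all measured genes, and the Hoxa+/-d-/- uterus was the highest for 24, against 19.3% of all. A second reference was the mean of the 3 libraries of a tissue that are not homozygous for the cluster in question, heterozygotes included. For the Hoxa homozygotes these are WT, Hoxd-/- and Hoxa+/-d-/-, and for the Hoxd homozygotes WT, Hoxa-/- and Hoxa-/-d+/-. By this non-homozygous mean, 3 chemokine genes stood higher and 16 lower in the Hoxa-/- uterus, 4 higher and 5 lower in Hoxa-/-d+/-, and 1 lower in each of Hoxd-/- and Hoxa+/-d-/-. The counts of higher genes in the Hoxd homozygotes stayed within 1.5 times of those against WT. No share over all measured genes was computed for this reference. In whole tissue, fewer cells of a type and less RNA per cell cannot be told apart.

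**Figure D1:**
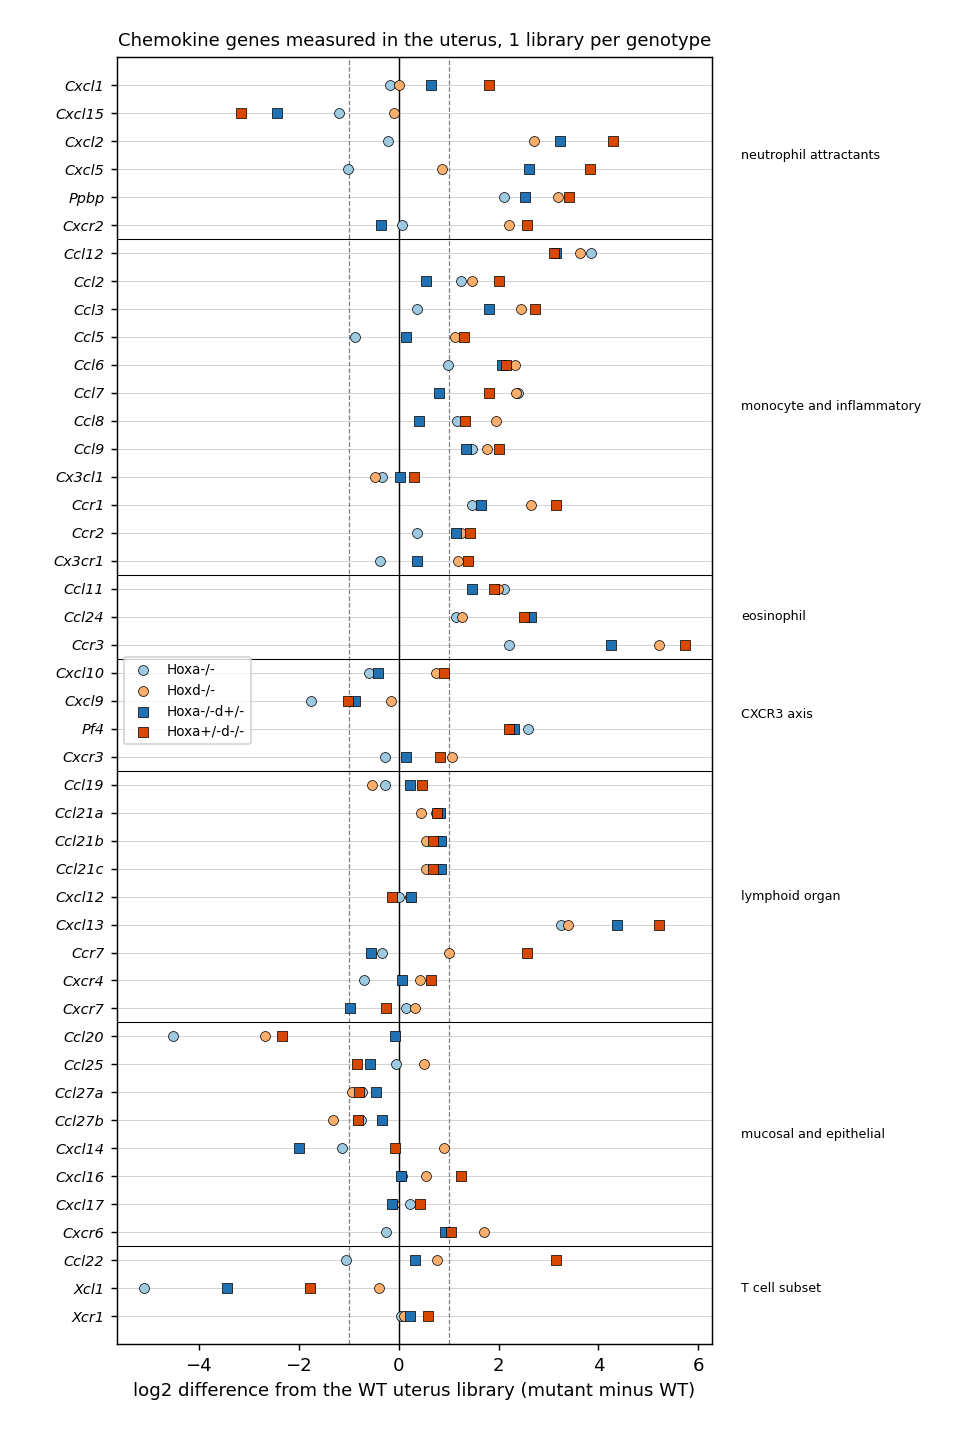
Log2 difference from the WT uterus (x axis) of the chemokine genes measured in the female set, 1 gene left out, ordered by role, with 1 point per mutant library and dashed lines at 2-fold. Ccr3 reaches 5.73 in the Hoxa+/-d-/- uterus and Xcl1 lies at -5.10 in the Hoxa-/- uterus.

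Receptors sit on the cells that respond to the ligands. Of 12 measured receptors, 9 were higher in the Hoxd-/- and 8 in the Hoxa+/-d-/- uterus, with 0 lower in either and medians of 1.15 and 1.41. Of 34 ligands, 14 and 18 were higher and 2 and 4 lower, with medians of 0.76 and 1.28. In the Hoxa-/- and Hoxa-/-d+/- uterus 2 and 3 of the 12 receptors were higher, with medians of 0.06 and 0.30. The receptors with the widest distance between the Hoxd-homozygous pair and the 3 other uteri were Cxcr2, Ccr7 and Ccr1, and they were the 3 measured chemokine genes for which both Hoxd-homozygous uteri lay at least 2-fold above all 3 others (0.898% of all measured genes did). The Ccr7 and Ccr1 gaps were at the threshold, and Ccl5 (0.98) and Ccr3 (0.96) lay just under it. That count was 6 without the WT library, 11 without Hoxa-/-d+/- and 12 without Hoxd-/-. Leaving out a library makes the rule looser for every gene, and the share over all measured genes was not computed for it. Within lane 2 alone, where the Hoxd homozygotes can be set against Hoxa-/-d+/-, 6 chemokine genes were higher in both (4.32% of all measured genes) and 1 was lower (5.36% of all). No chemokine gene lay above the others by 2-fold in both Hoxa homozygotes (0, against 1.01% of all), and none lay below them in both Hoxd homozygotes (0, against 0.337% of all).

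The neutrophil-attracting CXC genes differed in opposite directions within the group. Cxcl2, a CXCR2 ligand induced in inflammation, was read at 2.19 normalised reads in the WT, 1.89 in the Hoxa-/-, 14.4 in the Hoxd-/-, 20.5 in the Hoxa-/-d+/- and 42.7 in the Hoxa+/-d-/- uterus, and at 3.57 in the oviduct. Its 3 higher libraries were thus Hoxd-/-, Hoxa-/-d+/- and Hoxa+/-d-/-, while the Hoxa-/- uterus stayed beside WT. The Hoxa+/-d-/- to WT ratio was 19.5 with a 95% exact counting interval from 5.13 to 167, which rests on 2 WT reads. Such intervals compare the 2 libraries, not the genotypes, and cover counting error only, since sequenced copies of one molecule are not independent. Cxcl5, an epithelial CXCR2 ligand, stood at 21.9, 10.9, 40.0, 134 and 310 normalised reads in the same 5 uteri and at 11.1 in the oviduct, or log2 differences of 3.82 in the Hoxa+/-d-/- and -1.01 in the Hoxa-/- uterus. The Cxcl5 ratios to WT were 14.2 (9.01 to 23.4) in Hoxa+/-d-/- and 0.496 (0.231 to 1.11) in Hoxa-/-, where the interval includes equality. Ppbp, which encodes the platelet-derived precursor of CXCL7, was at 3.29 in WT and at 14.2, 29.9, 19.0 and 34.8 in the Hoxa-/-, Hoxd-/-, Hoxa-/-d+/- and Hoxa+/-d-/- uterus. All 4 mutants were above WT for Ppbp, with the smallest ratio, 4.31 (1.22 to 23.2, on 3 WT reads), in the Hoxa-/- library, which relative to the non-homozygous mean stood at -0.088.

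Cxcl1 was at 1.82 in the Hoxa+/-d-/- uterus and between -0.16 and 0.64 in the other 3 mutants. Cxcl3 did not reach the minimum and had 15.1 normalised reads in the Hoxa+/-d-/- uterus, its highest library, with WT and the oviduct at the floor of 1. Cxcl15, an epithelial chemokine also known as lungkine, was below WT, at -1.19, -0.09, -2.43 and -3.15 in the Hoxa-/-, Hoxd-/-, Hoxa-/-d+/- and Hoxa+/-d-/- uterus. Cxcr2, the receptor of the ELR ligands, did not follow the order of Cxcl2 and Cxcl5, at 0.07 and -0.36 in the Hoxa-/- and Hoxa-/-d+/- and 2.21 and 2.57 in the Hoxd-/- and Hoxa+/-d-/- uterus. Its gap of 2.14 between the Hoxd-homozygous pair and the nearest other uterus was the widest upward gap of the 46 genes.

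**Figure D2:**
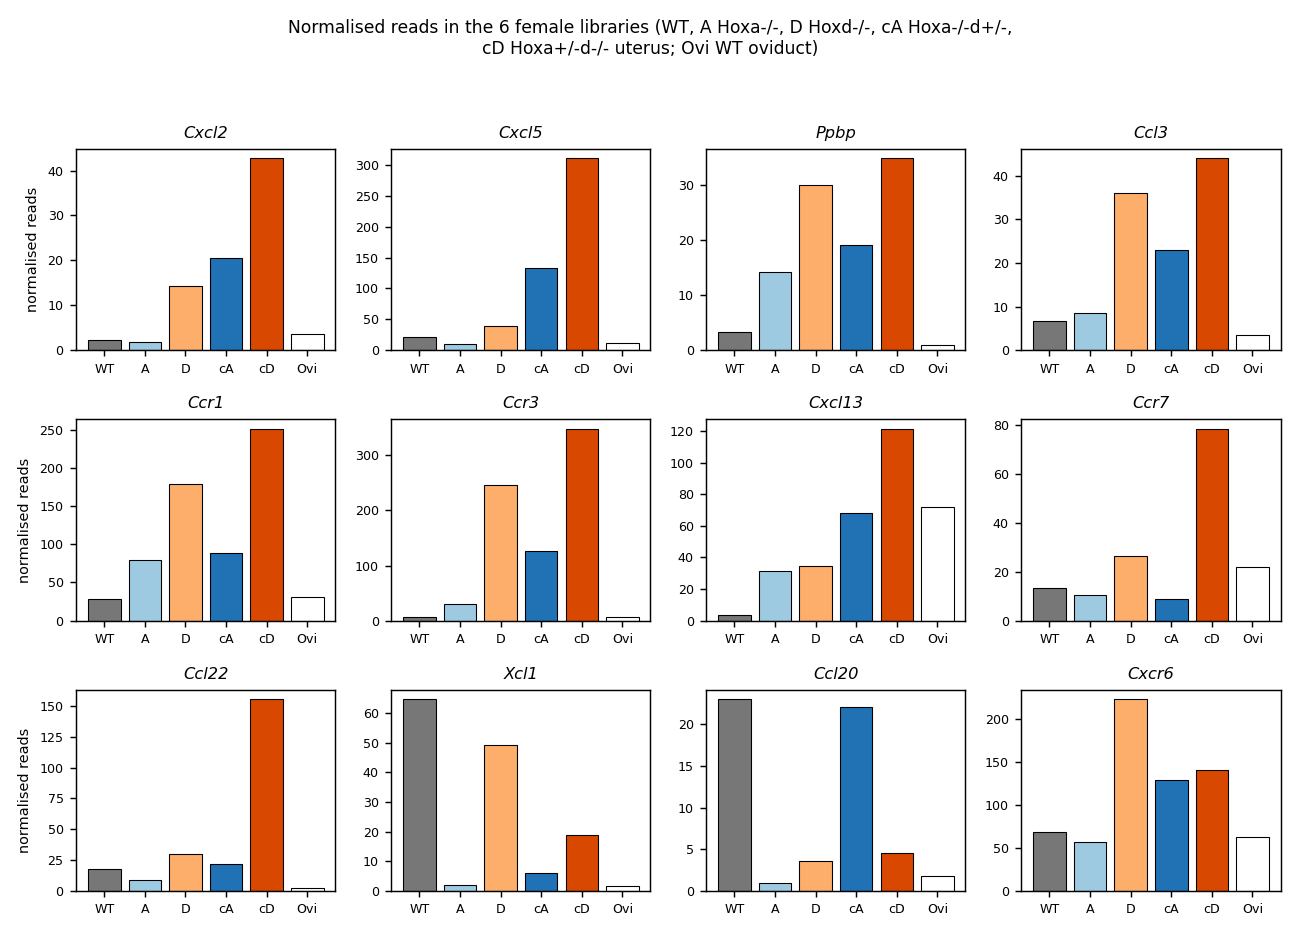
Normalised reads (y axis, linear, from 0, each panel with its own scale) of 12 chemokine genes in the 6 female libraries, 1 bar per library. Cxcl2, Cxcl5 and Ccr3 are highest in the Hoxa+/-d-/- uterus, Xcl1 is highest in WT at 64.7, and Ccl20 is as high in the Hoxa-/-d+/- uterus (22.0) as in WT (23.0).

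Cxcl1, Cxcl2 and Cxcl3 lie in the chromosome 5 group of CXC genes and are shown with Ccr3 and Ccl20 because all 5 promoters hold the same kind of motif while the levels of these genes differed in direction. Capitals mark matches to the kappaB consensus, the binding motif of NF-kappaB, searched on both strands of 300 bases around the gene start, of which the 250 before the start are printed. The sequences are from RefSeq on GRCm38.p6, 5′ to 3′ along each gene, at chr5:90890995-90891244, chr5:90903649-90903898, chr5:90785851-90786100, chr9:124021721-124021970 and chr1:83116516-83116765, all on the plus strand.
Cxcl1: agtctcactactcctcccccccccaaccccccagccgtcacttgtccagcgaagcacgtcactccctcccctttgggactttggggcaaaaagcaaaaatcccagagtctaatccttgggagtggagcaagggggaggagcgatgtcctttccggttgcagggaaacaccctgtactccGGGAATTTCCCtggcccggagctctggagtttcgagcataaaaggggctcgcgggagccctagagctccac
Cxcl2: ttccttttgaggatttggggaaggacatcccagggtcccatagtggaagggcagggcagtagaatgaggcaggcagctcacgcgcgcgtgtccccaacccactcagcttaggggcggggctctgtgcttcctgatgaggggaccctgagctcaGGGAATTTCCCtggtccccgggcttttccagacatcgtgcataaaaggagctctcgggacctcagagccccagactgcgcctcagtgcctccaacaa
Cxcl3: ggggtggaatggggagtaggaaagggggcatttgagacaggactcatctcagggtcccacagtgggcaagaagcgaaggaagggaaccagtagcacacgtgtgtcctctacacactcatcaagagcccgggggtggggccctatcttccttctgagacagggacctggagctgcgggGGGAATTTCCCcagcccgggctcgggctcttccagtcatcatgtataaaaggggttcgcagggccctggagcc
Ccr3: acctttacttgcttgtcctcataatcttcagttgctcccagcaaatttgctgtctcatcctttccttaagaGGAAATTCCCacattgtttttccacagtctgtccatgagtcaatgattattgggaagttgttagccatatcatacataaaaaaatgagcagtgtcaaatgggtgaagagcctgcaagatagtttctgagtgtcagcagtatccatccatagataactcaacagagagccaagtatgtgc
Ccl20: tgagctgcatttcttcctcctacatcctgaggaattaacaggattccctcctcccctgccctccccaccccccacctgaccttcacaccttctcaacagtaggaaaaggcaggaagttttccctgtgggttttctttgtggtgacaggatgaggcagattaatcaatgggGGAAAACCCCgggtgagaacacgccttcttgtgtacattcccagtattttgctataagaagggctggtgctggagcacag
The 3 Cxcl promoters carry the same stretch of 11 bases, covered by overlapping matches on both strands, and it begins 71, 97 and 73 bases before the start of Cxcl1, Cxcl2 and Cxcl3. Ccr3 and Ccl20 have 1 match each on the opposite strand, 179 and 80 bases before the start. RefSeq promoters were found for 42 of the 59 genes, as 49 sequences. A kappaB match was present in 11 of these 49 (22.4%) and in 8.46% of all 32851 promoters in the table. Genes with a match include higher ones (Cxcl1, Cxcl2, Ccr1, Ccr3) and a lower one (Ccl20), and Cxcl13, with a large difference, has none in this window. A match describes the letters and shows no binding.

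Among the monocyte and inflammatory genes, CC and CX3C, 12 of 13 measured members were higher in each Hoxd-homozygous uterus, and 6 of 13 in each Hoxa-homozygous uterus. Ccl3, which encodes MIP-1alpha, was at 6.58 normalised reads in WT, 8.51 in the Hoxa-/-, 35.9 in the Hoxd-/-, 23.0 in the Hoxa-/-d+/- and 43.9 in the Hoxa+/-d-/- uterus, so both Hoxd-homozygous libraries were highest. Ccl12, a monocyte attractant acting through CCR2, stood at 2.74 in WT and at 39.8, 34.0, 24.2 and 23.8 in the 4 mutants in the same order, with little difference among the mutants. Ccl7, another CCR2 ligand, was at 11.5 in WT and at 60.2, 58.7, 20.1 and 40.2. For Ccl7 and Ccl12 the single Hoxa-/- uterus was thus as high as the single Hoxd-/- one. Ccl2, the main CCR2 ligand, had differences of 1.25, 1.48, 0.54 and 2.01, and Ccl8, a monocyte attractant, of 1.17, 1.96, 0.41 and 1.33. Ccl6 was at 0.99, 2.33, 2.06 and 2.15 and Ccl9 at 1.47, 1.78, 1.34 and 2.01, both attractants of CCR1-bearing cells. Ccl5, which encodes RANTES, was below WT in the Hoxa-/- (-0.87) and above it in the Hoxd-/- (1.13) and Hoxa+/-d-/- (1.31) uterus. Cx3cl1, the membrane-bound fractalkine, stayed within 2-fold, from -0.47 to 0.30.

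The receptors of these ligands were also higher in the Hoxd homozygotes. Ccr1, expressed on monocytes and neutrophils, was at 28.5 normalised reads in WT, 79.4 in the Hoxa-/-, 178 in the Hoxd-/-, 89.1 in the Hoxa-/-d+/- and 251 in the Hoxa+/-d-/- uterus, and at 30.3 in the oviduct. The Hoxa+/-d-/- to WT ratio was 8.82 (5.89 to 13.7). The mutants were all above WT and the Hoxd-homozygous pair did not overlap the other 3 uteri. Relative to the non-homozygous mean, Ccr1 stood at -0.45 in Hoxa-/- and -0.29 in Hoxa-/-d+/-. Ccr2, the receptor of inflammatory monocytes, was at 0.37, 1.26, 1.15 and 1.43, and Cx3cr1, of resident macrophages and patrolling monocytes, at -0.37, 1.18, 0.37 and 1.38 in the Hoxa-/-, Hoxd-/-, Hoxa-/-d+/- and Hoxa+/-d-/- uterus. Ccl4 lay just under the minimum, at 19.1 normalised reads in the Hoxd-/- uterus, and a common factor of 2 in its read numbers, which cannot be settled, would decide whether it passes.

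The eosinophil group was above WT in every mutant uterus. Ccr3, the eotaxin receptor of eosinophils (Gene ID 12771, chromosome 9, start 123936703, mm9), had the widest range of all chemokine genes over the 5 uteri, 5.73. It was at 6.58 normalised reads in WT, 30.3 in the Hoxa-/-, 245 in the Hoxd-/-, 126 in the Hoxa-/-d+/- and 348 in the Hoxa+/-d-/- uterus, and at 7.13 in the oviduct. The ratios to WT were 4.60 (1.90 to 13.5), 37.3 (16.9 to 103), 19.2 (8.57 to 53.3) and 53.0 (24.1 to 145), counting error only, and the Hoxa-homozygous pair lay between WT and the Hoxd-homozygous pair. Relative to the non-homozygous mean the Hoxa-/- library stood at -1.45. Both eotaxin genes were higher than WT in all 4 mutants. Ccl11, a stromal and epithelial eotaxin, was at 2.12, 1.99, 1.48 and 1.91, and Ccl24 at 1.15, 1.26, 2.65 and 2.52, where the first and second values become -0.11 and -0.00077 relative to the non-homozygous mean. The Ccl24 ratios to WT, on 5 WT reads, were 2.21 (0.75 to 8.03) in Hoxa-/- and 2.4 (0.77 to 8.82) in Hoxd-/-. Both of these intervals include equality. The ligands did not order the libraries as the receptor did. Of 9 measured eosinophil and mast cell markers, 4, 5, 4 and 6 were higher and 2, 0, 1 and 0 lower. Prg2, an eosinophil granule gene, was at -2.70, 2.59, 0.63 and 1.44, and the mast cell gene Cpa3 at 1.64, 1.04, 1.76 and 2.03. Siglec5, named after its values were seen, was at 0.94, 4.24, 2.34 and 3.70, and Epx, another eosinophil granule gene, did not reach the minimum. The contribution of eosinophils to the Ccr3 difference was not tested. The genes most alike to Ccr3 over the 6 female libraries by Pearson correlation were Was (0.995), Tnfsf14 (0.994) and Abcg3 (0.993), libraries that share tissue and depth, given as a description.

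The CXCR3 ligands, which are induced by interferon and attract effector T cells and NK cells, did not share a direction. Cxcl10 was at 41.5, 27.4, 69.9, 31.0 and 77.4 normalised reads in the WT, Hoxa-/-, Hoxd-/-, Hoxa-/-d+/- and Hoxa+/-d-/- uterus, within 2-fold of WT in each. Cxcl9 was at -1.76, -0.15, -0.87 and -1.02 in the 4 mutants, lowest in Hoxa-/-. Cxcr3 itself was at -0.28, 1.06, 0.14 and 0.83. Pf4, a platelet chemokine gene placed with this group, was at 2.59, 2.26, 2.30 and 2.22, above WT to a similar extent in all mutants, while the 3 measured platelet and megakaryocyte markers had medians from -0.13 to 0.07. Of 9 interferon-related partner genes 0 were higher in the Hoxd-/- and Hoxa+/-d-/- uterus, with medians of 0.31 and 0.68.

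Among homeostatic chemokines, Cxcl13 had the largest differences. Cxcl13, which attracts B cells through CXCR5, was at 3.29 normalised reads in WT, 31.2 in the Hoxa-/-, 34.7 in the Hoxd-/-, 68.1 in the Hoxa-/-d+/- and 122 in the Hoxa+/-d-/- uterus, and at 72.2 in the oviduct. WT was the lowest of the 6 libraries, Hoxa-/- and Hoxd-/- were close to each other, and Hoxa-/-d+/- and Hoxa+/-d-/- were the highest uteri. The Hoxa+/-d-/- to WT ratio was 37.0, with an interval of 12.4 to 182 that rests on 3 WT reads. Its receptor gene Cxcr5 did not reach the minimum. Ccr7, which directs dendritic cells and naive T cells to lymph nodes, was at 13.2, 10.4, 26.3, 9.01 and 78.6 normalised reads in the 5 uteri and at 22.1 in the oviduct, so Hoxa+/-d-/- was the highest. The Hoxd-/- ratio for Ccr7 had an interval from 0.949 to 4.44, which includes equality. The CCR7 ligand genes Ccl19 and Ccl21a were within 2-fold of WT in all 4 mutants, from -0.53 to 0.47 and from 0.45 to 0.83. Ccl21b and Ccl21c, near-identical copies of Ccl21a that can share its reads, gave almost the same values. Cxcl12, the CXCR4 ligand of stromal cells, stayed within -0.14 to 0.24, Cxcr4 within -0.69 to 0.64, and the scavenging CXCL12 receptor gene Cxcr7 within -0.97 to 0.33. For Ccl7, Ccl12, Ccr7, Cxcl5, Cxcl10 and Cxcl13 in the female set, and Ccr10 and Cxcl13 in the male set, the read numbers may all be off by a common factor of 2, which leaves the ratios as they are but changes the intervals.

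Among the 8 measured mucosal and epithelial genes, 0, 1, 0 and 2 were higher and 2, 2, 1 and 1 lower than WT. Ccl20, an epithelial attractant of CCR6-bearing lymphocytes and dendritic cells, was at 23.0 normalised reads in WT, at the floor in the Hoxa-/-, at 3.59 in the Hoxd-/-, 22.0 in the Hoxa-/-d+/- and 4.57 in the Hoxa+/-d-/- uterus, and at 1.78 in the oviduct. The Hoxa-/- uterus was at least 8.12-fold lower than WT, taking 3 reads for the library at the floor, and the ratios of the Hoxd-/- and Hoxa+/-d-/- library were 0.156 (0.0298 to 0.523) and 0.199 (0.0585 to 0.541). The Hoxa-/-d+/- uterus did not follow the Hoxa-/- one, at 0.957 of WT (0.502 to 1.83). Cxcl14, a constitutive epithelial and stromal chemokine, was lower in both Hoxa-homozygous uteri, at -1.14 and -1.99, against 0.90 in the Hoxd-/- and -0.07 in the Hoxa+/-d-/- uterus, and together with Xcl1 it was 1 of 2 chemokine genes for which both Hoxa-homozygous uteri lay at least 2-fold below the 3 others (1.07% of all measured genes did). That count was 6 without the WT library and 5 without Hoxa-/-d+/-, looser rules for which no share over all measured genes was computed. Cxcl16, a membrane-bound CXCR6 ligand, was at 1.25 in the Hoxa+/-d-/- uterus and within 2-fold in the others. Cxcr6, its receptor on T and NK cells, was at 68.0, 56.7, 223, 129 and 140 normalised reads in the 5 uteri in the same order, so the single Hoxd-/- library was the highest. Ccl25, Ccl27a, Ccl27b and Cxcl17 reached 2-fold in no mutant except Ccl27b at -1.31 in the Hoxd-/-, and Ccl27a and Ccl27b are near-identical copies.

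In the T cell group, Xcl1 and Ccl22 were called in opposite directions in the Hoxa+/-d-/- uterus (-1.77 and 3.15). Both were called lower in the Hoxa-/- uterus (-5.10 and -1.04). Xcl1, the chemokine of activated NK and T cells, was at 64.7 normalised reads in WT, 1.89 in the Hoxa-/-, 49.1 in the Hoxd-/-, 6.01 in the Hoxa-/-d+/- and 18.9 in the Hoxa+/-d-/- uterus, and at 1.78 in the oviduct. Both Hoxa-homozygous uteri were low, with ratios to WT of 0.0292 (0.00346 to 0.110) and 0.0929 (0.0328 to 0.214), and Hoxd-/- was the mutant nearest to WT. The Hoxa+/-d-/- library had a ratio of 0.292 (0.171 to 0.496), yet it stood at 1.07 relative to the non-homozygous mean, which includes the low Hoxa-/- and Hoxa-/-d+/- libraries. Of the 10 measured NK cell markers, 9 were lower in the Hoxa-/- and 8 in the Hoxa-/-d+/- uterus, with medians of -1.75 and -1.78, against medians of 0.24 and 0.20 in the Hoxd-/- and Hoxa+/-d-/- uterus, and the contribution of these cells to the Xcl1 difference was not tested. Ccl22, made by macrophages and dendritic cells for CCR4-bearing T cells, was at 17.5, 8.51, 29.9, 22.0 and 155 normalised reads in the 5 uteri and 2.68 in the oviduct, so Hoxa+/-d-/- was by far the highest. The Ccl22 ratio there was 8.86 (5.30 to 15.9), and in Hoxa-/- it was 0.485 (0.189 to 1.17), an interval that includes equality. Xcr1, the receptor for XCL1 on cross-presenting dendritic cells, stayed within 0.06 to 0.58.

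The chemokine genes of a genomic group did not always follow one another. Of all measured genes, 5.91%, 6%, 8.47% and 7.79% were higher and 7.12%, 5.62%, 6.63% and 6.22% lower in the 4 mutant uteri. In the chromosome 11 group from Ccl2 to Ccl1 (mm9 starts 81849079 to 81990168), 5 of 5 measured genes were higher in the Hoxa-/-, Hoxd-/- and Hoxa+/-d-/- uterus and 2 of 5 in the Hoxa-/-d+/- uterus, with medians of 2.12, 1.99, 1.91 and 0.81. In the group from Ccl5 to Ccl4 (83339341 to 83476086), the Hoxa-/- uterus had 1 of 4 and the Hoxd-/- and Hoxa+/-d-/- uterus 4 of 4 higher. In the chromosome 5 group from Cxcl5 to Cxcl2 (91188325 to 91332925), which holds 6 measured genes, 2, 3, 4 and 5 were higher and 2, 0, 1 and 1 lower, with medians of -0.19, 1.56, 2.42 and 2.81. Of the 6 measured receptors in the chromosome 9 group that begins with Ccr9 (mm9 start 123587557), 2, 5, 3 and 5 were higher. The chromosome 4 group with Ccl19, Ccl21a and Ccl27a had 0, 1, 0 and 0 members differing by 2-fold, the 1 being lower.

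Several leukocyte marker lists were higher in the same libraries. Of 12 measured neutrophil markers, 9 were higher in each Hoxd-homozygous uterus, with medians of 1.94 and 2.18, and macrophage and monocyte markers in 12 and 10 of 13, with medians of 1.16 and 1.31. T cell markers were higher in 7 and 4 of 10 and B and plasma cell markers in 4 and 4 of 5. Dendritic cell markers were higher in 2 and 4 of 7, and NK cell markers in 1 and 2 of 10, with 0 and 2 lower. In the Hoxa-/- and Hoxa-/-d+/- uterus the medians were -0.28 and 0.34 for neutrophil, 0.08 and 0.12 for macrophage and 0.03 and 0.77 for T cell markers. Erythroid markers were higher in 3 of 3 in the Hoxd-/- uterus, with a median of 1.51, and in 0 of 3 in the Hoxa+/-d-/- uterus, with a median of 0.11. Of the neutrophil markers, Camp, Ngp, Ly6g and Fpr1 did not reach the minimum. Of 7 fibroblast and stroma markers, 4, 3, 5 and 1 were higher, with medians of 1.14, 0.78, 1.25 and 0.73. Epithelial markers were 2-fold higher or lower in 0 of 7 in every mutant uterus, and 4, 2, 4 and 3 of 7 uterine markers were lower. The contribution of any of these cells to the chemokine differences was not tested.

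Of 13 NF-kappaB feedback and inflammatory inducer genes, the Hoxa+/-d-/- uterus had 8 higher and 0 lower, with a median of 1.14, and 1 was higher in the Hoxd-/- uterus, with a median of 0.17. The Hoxa-/-d+/- and Hoxa-/- uterus had 3 and 0 higher and 1 and 2 lower. Il1b, Il1a and Il6 are named as examples outside the order of the list and do not stand for it. Il1b was at 2.57 and 2.74 in the Hoxd-/- and Hoxa+/-d-/- uterus and at -0.35 and 1.02 in the Hoxa-/- and Hoxa-/-d+/- uterus. Il1a reached 3.10 in the Hoxa+/-d-/- uterus and stayed within -0.65 to 0.43 in the others. Il6 was at -1.63, -0.55, 2.26 and -0.45, highest in Hoxa-/-d+/-. Of 20 measured genes of receptor signalling, 0, 7, 3 and 7 were higher and 2, 0, 0 and 1 lower. Of 12 measured atypical receptors and chemokine regulators, 1, 1, 2 and 2 were higher and 4, 1, 2 and 2 lower.

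**Figure D3:**
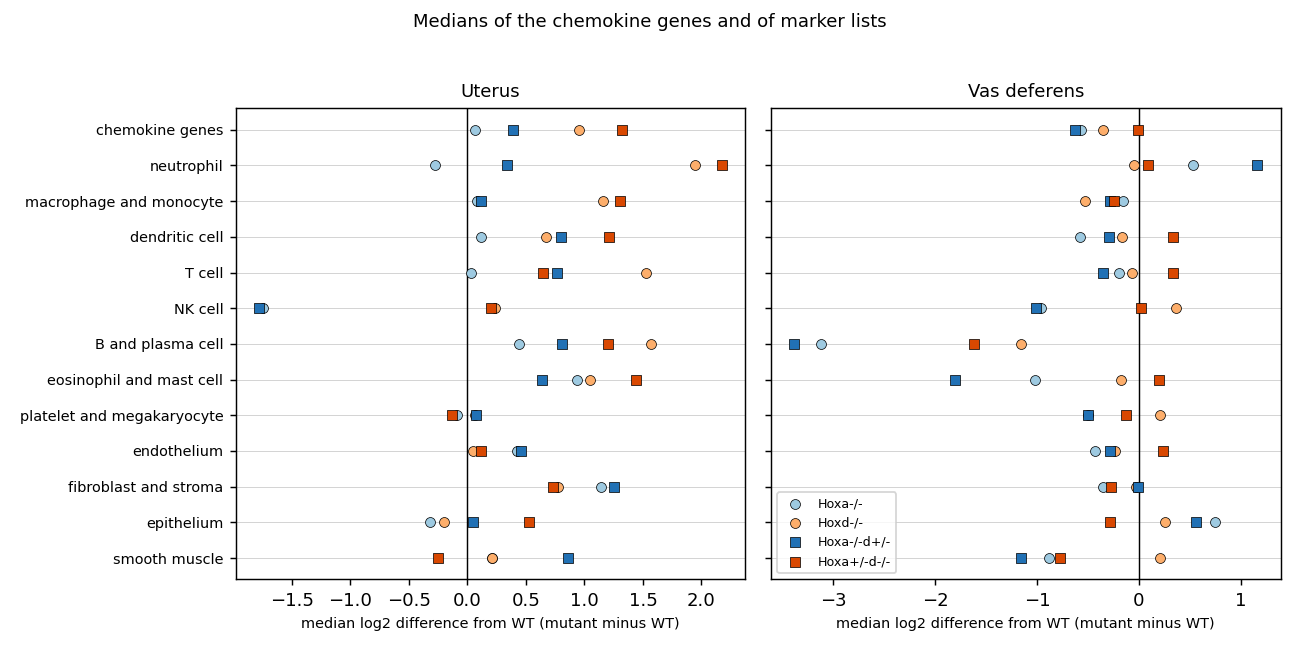
Median log2 difference from WT (x axis) of the measured chemokine genes and of marker lists in the uterus (left) and vas deferens (right), 1 point per mutant library. In the uterus the neutrophil, macrophage and chemokine medians of the Hoxd-homozygous pair lie right of the Hoxa-homozygous pair, and in the vas deferens the B and plasma cell medians lie between -3.38 and -1.16.

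In the vas deferens the median chemokine gene lay below WT in 3 mutants and beside WT in Hoxa+/-d-/-. Of the 40 measured genes, 2 were higher (10.7% of all measured genes were) and 7 lower (8.31% of all) in the Hoxa-/-, and 1 was higher (14.1% of all) and 9 lower (8.21% of all) in the Hoxa-/-d+/- vas deferens. The Hoxd-/- vas deferens had 2 higher (3.31% of all) and 8 lower (4.63% of all), and the Hoxa+/-d-/- vas deferens 5 higher (7.53% of all) and 3 lower (5.05% of all). The medians were -0.57, -0.63, -0.35 and -0.01 in that order. By the non-homozygous mean, 1 gene was higher in Hoxa-/-, 1 lower in Hoxd-/- and 0 lower in Hoxa+/-d-/-. The other counts by this mean stayed within 1.5 times of those against WT. Without a minimum level, from a larger set of genes, 12 were lower in Hoxa-/-, 15 in Hoxa-/-d+/- and 6 in Hoxa+/-d-/-. No share over all measured genes was computed for either alternative. WT and the Hoxa+/-d-/- library were each the highest for 15 of the 40 genes, against 20.6% and 21.3% of all measured genes. The lower members included genes of the lymphoid group, where Cxcr5, the CXCL13 receptor of B cells, was at -2.25, -1.04, -2.58 and -1.24 in the 4 mutants. Relative to the non-homozygous mean, Cxcr5 stood at 0.56 in Hoxd-/- and 0.37 in Hoxa+/-d-/-.

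Ccr7 was at 33.1 normalised reads in the WT vas deferens and at 11.1, 14.7, 7.07 and 10.3 in the Hoxa-/-, Hoxd-/-, Hoxa-/-d+/- and Hoxa+/-d-/- ones, with 5.40 in the epididymis, so WT was the highest of the 6 libraries. Relative to the non-homozygous mean the Hoxd-/- one stood at 0.10. Ccl19, a CCR7 ligand gene, was at -1.08, -1.29, -1.92 and -1.12, lower than WT in all 4 mutants. B and plasma cell markers were lower in 6, 5, 6 and 5 of 8, with medians of -3.12, -1.16, -3.38 and -1.62 in the same order. The contribution of these cells to the Ccr7, Cxcr5 and Ccl19 differences was not tested. Cxcl13, in contrast, was at 59.9, 59.9, 86.9, 50.4 and 171 normalised reads in the 5 vasa, highest in the Hoxa+/-d-/- one.

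**Figure D4:**
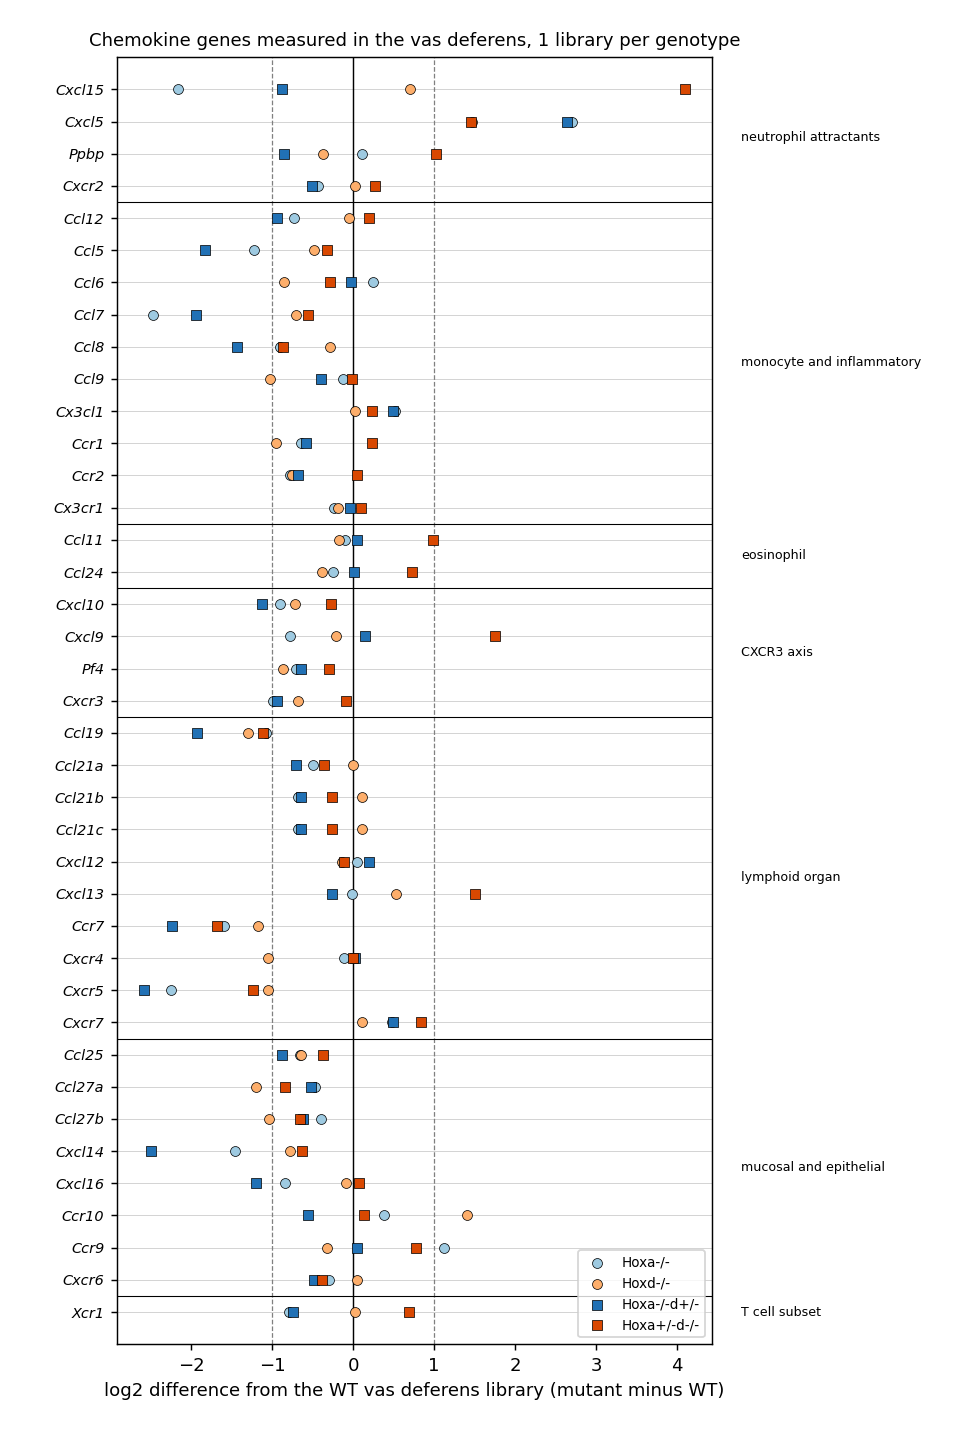
Log2 difference from the WT vas deferens (x axis) of the chemokine genes measured in the male set, 1 gene left out, ordered by role, with 1 point per mutant library. Dashed lines mark 2-fold. Ccr7, Cxcr5 and Ccl19 lie left of 0 in all 4 mutants and Cxcl5 lies right of it in all 4.

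Several inflammatory ligands were lowest in the Hoxa homozygotes. Ccl7 was at 30.3 normalised reads in the WT, 5.53 in the Hoxa-/-, 18.6 in the Hoxd-/-, 7.96 in the Hoxa-/-d+/- and 20.7 in the Hoxa+/-d-/- vas deferens, with 29.7 in the epididymis. The ratios of the 2 Hoxa-homozygous libraries to WT were 0.182 (0.0635 to 0.431) and 0.263 (0.113 to 0.547). Ccl7 and Cxcr5 were the 2 genes for which both Hoxa-homozygous vasa lay at least 2-fold below the 3 others (2.31% of all measured genes did). Without the Hoxa-/- library, a looser rule for which no share was computed, the count was 5. Within lane 2, where both Hoxa homozygotes can be set against Hoxd-/- alone, 4 were lower (5.06% of all) and 1 was higher (9.27% of all). Ccl5 was at -1.22 and -1.83 in the Hoxa-/- and Hoxa-/-d+/- library, and Cxcl14 at -1.46 and -2.50, against -0.78 and -0.63 in the Hoxd-/- and Hoxa+/-d-/- one. Cxcl5 was above WT in all 4 mutants, at 1.41, 9.21, 3.91, 8.84 and 3.88 normalised reads in the WT, Hoxa-/-, Hoxd-/-, Hoxa-/-d+/- and Hoxa+/-d-/- vas deferens, and was the 1 gene for which both Hoxa-homozygous vasa lay 2-fold above the others (4.21% of all did). Its vas levels rest on 2 to 10 reads, and the ratios of the Hoxa-/- and Hoxa-/-d+/- library, 6.54 (1.39 to 61.4) and 6.28 (1.34 to 58.9), have wide intervals. Relative to the non-homozygous mean, Cxcl5 stood at -0.31 in Hoxd-/- and -0.32 in Hoxa+/-d-/-. In the 2 Hoxa-homozygous vasa 5 of 6 caudal epididymis markers were higher and 4 of 5 vas deferens markers lower. The vas deferens list includes Hoxa11, itself a targeted gene, which is 1 of the lower markers at -2.29 and -3.20.

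Cxcl15 had the widest range among the vasa, 6.25, at -2.16, 0.71, -0.88 and 4.09 in the Hoxa-/-, Hoxd-/-, Hoxa-/-d+/- and Hoxa+/-d-/- library, and its level could not be read. Cxcl9 was at 1.75 in the Hoxa+/-d-/- vas deferens and between -0.78 and 0.15 in the others. The receptor Ccr1 was at 121, 78.3, 62.6, 81.4 and 143 normalised reads in the 5 vasa, and Cxcr4 at 46.5, 43.3, 22.5, 47.8 and 46.5, with only the Hoxd-/- vas deferens 2-fold lower for Cxcr4. Ccr10, a receptor of plasma and skin-homing T cells, was at 20.5 normalised reads in the Hoxd-/- and 5.31 to 10.1 in the other 4 vasa. By these reads it passed the minimum only through the Hoxd-/- library, the one in which it was called higher. No chemokine gene separated both Hoxd-homozygous vasa from the 3 others, with 0 higher (0.162% of all measured genes) and 0 lower (0.6% of all) by 2-fold. The count higher was 3 without the WT or the Hoxd-/- library, and the count lower 1 without WT, looser rules for which no share was computed. Within lane 2, Hoxd-/- against the Hoxa homozygotes mirrors the comparison above, with 4 higher (5.06% of all) and 1 lower (9.27% of all).

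The genes that follow reached 2-fold in a single mutant vas deferens or in none. Ccl11 was at 57.0, 53.6, 50.9, 59.6 and 114 normalised reads in the 5 vasa, with Hoxa+/-d-/- the highest and just short of 2-fold. Ppbp was at 12.7, 13.8, 9.78, 7.07 and 25.9, again highest in Hoxa+/-d-/-, where its ratio to WT was 2.04 (1.02 to 4.09). It passed the minimum only through that library. Ccl8 was at -0.90, -0.29, -1.43 and -0.87 and Cxcl10 at -0.90, -0.72, -1.13 and -0.27, both lowest in Hoxa-/-d+/-. The ligand Ccl9 was at -0.12, -1.03, -0.40 and -0.02, lowest in Hoxd-/-. Ccl27a, with its near-identical copy Ccl27b, was also lowest there, at -1.19 against -1.04 for the copy. Ccr9, a gut-homing receptor, was at 1.12, -0.32, 0.05 and 0.78, and Cxcl16 at -0.85, -0.08, -1.20 and 0.07. Cxcl12 stayed within -0.14 to 0.19, Cx3cr1 within -0.23 to 0.09 and Cxcr2 within -0.51 to 0.27.

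Between WT segments, more chemokine genes were lower than higher in the oviduct and the epididymis. The oviduct was higher than the uterus for 4 of 46 genes (16.5% of all measured genes were) and lower for 9 (11.5% of all), with a median of -0.38. Cxcl13 was 4.45 higher and Ccl6 and Ccl12 were 2.25 and 2.13 higher in the oviduct, and Cxcr4 1.16 higher, while Xcl1, Ccl20 and Ccl22 stood at -5.18, -3.69 and -2.72. The other genes lower in the oviduct were Cxcl15 (-2.50), Cxcl14 (-1.93), Cxcr3 (-1.65), Ccl5 (-1.62), Cxcl17 (-1.57) and Ppbp, which was at the floor there and had 3 reads in WT, too few for a fold. All 10 measured NK cell markers were lower in the oviduct, with a median of -2.73. The caudal epididymis was higher than the vas deferens for 4 of 40 genes (16.4% of all) and lower for 16 (12.4% of all), with a median of -0.77. Cxcl10 and Ccr7 stood there at -3.80 and -2.63, and Cxcl5 was higher by 5.11, at 49.0 normalised reads against 1.41 in the vas deferens, a ratio of 34.8 (8.89 to 296). Cxcl5 reached the minimum in the epididymis only, so it entered the counts through the library where it was high. The other genes higher in the epididymis were Ccr9 (1.56), Cxcr7 (1.04) and Cx3cl1 (1.01). Of the CXCR3 group, Cxcl9 was at -2.37 and Cxcr3 at -1.12, and the CXCR6 ligand gene Cxcl16 was at -2.03. Of the lymphoid group 8 of 10 were lower in the epididymis. Among them were the near-identical copies Ccl21a (-1.05), Ccl21b (-1.06) and Ccl21c (-1.06), which can share reads and lay just past the threshold.

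**Figure D5:**
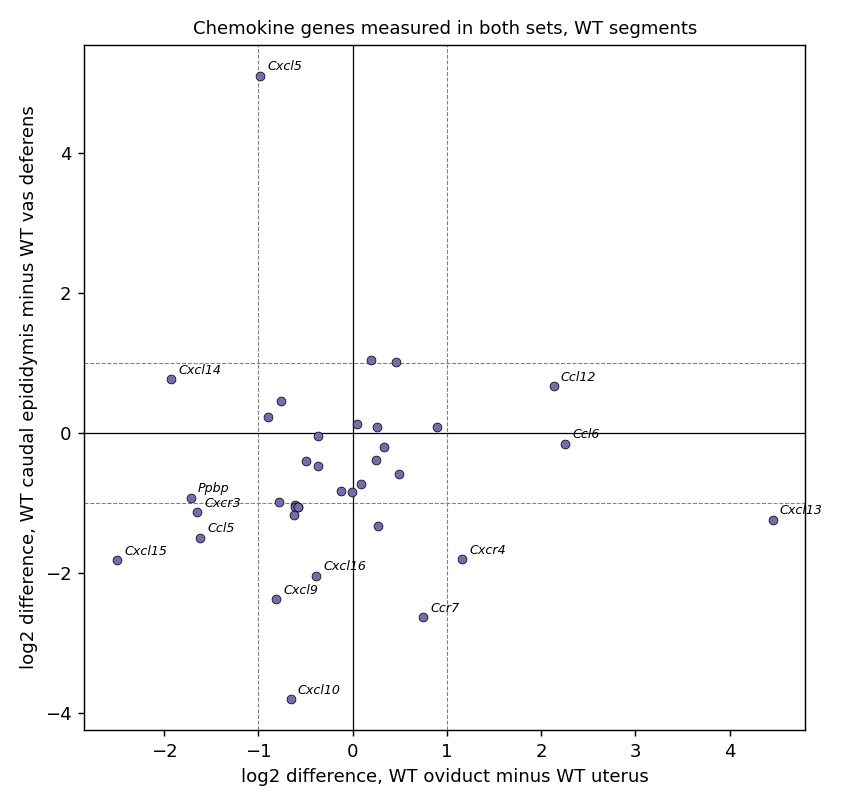
Log2 difference of the oviduct from the uterus (x axis) and of the caudal epididymis from the vas deferens (y axis), WT libraries, for the 37 chemokine genes measured in both sets, each point a gene. Dashed lines mark 2-fold. Cxcl13 lies at 4.45 on the x axis and -1.24 on the y axis, and Cxcl5 at -0.98 and 5.11.

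The remaining chemokine genes were constant or low. In the female set Ccl26 and Cxcr1 were constant, and Cxcl3, Cxcl11, Ccl1, Ccl4, Ccl17, Ccr4, Ccr6, Ccr8, Ccr9, Ccr10 and Cxcr5 did not reach the minimum. In the male set Ccl20 and Cxcr1 were constant and 17 genes did not reach it, among them Cxcl1, Cxcl2, Cxcl3, Xcl1 and Ccr3.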

How the data were processed

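RNA was sequenced in 12 libraries, each pooled from 3 mice. Per the labels, TruSeq libraries were made from RNeasy-purified RNA. TopHat and mm9 are named in the submitters' processing notes. No source used here gives the counting tool or the normalisation. The authors deposited log2 values centred to a median of 0 per gene over the 6 libraries of a sex, so levels cannot be compared between the sexes. The spacing of low values gave the worth of 1 read per library, and from it read numbers, with a floor of 1 normalised read. Recovered reads were whole or fractions of a read, and no level is printed where no step could be found. This recovery was also run on simulated data with a fixed share of fractional reads. The outcome is not given here, so that run is no check of the printed levels. Small library shifts, at most 0.0080 log2 units, were removed.

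Differences from WT were called at 2-fold, with no test because there was 1 library per group. Ratio intervals are exact Clopper-Pearson at 95%, from rounded reads. Member genes and the 22 gene lists were chosen with earlier results of these data known. Genes are named by role, and those alike to the widest-ranging member by the highest correlation over 6 libraries. Promoters came from RefSeq. The values of 1 gene are not reported here, though it is in the counts and medians. Python 3.11.15, pandas 2.3.3, numpy 2.4.6 and scipy 1.17.1 were used. Alternatives were unshifted values, no minimum and a minimum of 4 reads, the mean of the 3 libraries not homozygous for the cluster (heterozygotes included) as reference and each library left out. A comparison within lane 2 was chosen after seeing the data.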

Additional observations from a re-analysis of the deposited data

Results flagged for a closer look

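Ccr7 differed in opposite directions in the 2 tissues when both Hoxd-homozygous libraries were set against WT. The mean difference was 1.79 in the uterus, where both Hoxd-homozygous libraries were above WT, and -1.43 in the vas deferens, where both were below it. In the uterus the Hoxd-/- ratio had a counting interval from 0.949 to 4.44, which includes equality. In the vas deferens the Hoxa-/- and Hoxa-/-d+/- libraries were below WT as well, at -1.59 and -2.24. Relative to the non-homozygous mean, the Hoxd-/- vas deferens turned direction. The difference between the tissues was not tested. In the vas deferens, B and plasma cell markers were lower in 5 of 8 in each Hoxd homozygote and in 6 of 8 in each Hoxa homozygote.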

How the results depend on the processing

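With the mean of the 3 libraries not homozygous for the cluster in place of WT, heterozygotes included, 3 chemokine genes stood higher and 16 lower in the Hoxa-/- uterus, 4 higher and 5 lower in Hoxa-/-d+/-, and 1 lower each in Hoxd-/- and Hoxa+/-d-/-. In the vas deferens this reference gave 1 higher in Hoxa-/-, 1 lower in Hoxd-/- and 0 lower in Hoxa+/-d-/-. These 9 counts moved by more than 1.5 times from those against WT, and the 7 other counts with this reference stayed within that. Of 128 single values, 70 kept direction and call, 46 kept direction but were no longer 2-fold, and 12 turned direction. These were Ccl24 (-0.11 in Hoxa-/-, -0.00077 in Hoxd-/-), Ccr1 (-0.45 and -0.29 in the Hoxa homozygotes), Ccr3 (-1.45) and Ppbp (-0.088) in Hoxa-/- and Xcl1 (1.07) in Hoxa+/-d-/- uterus. In the vas deferens they were Ccr7 (0.10) in Hoxd-/-, Cxcl5 (-0.31 and -0.32) and Cxcr5 (0.56 and 0.37) in the Hoxd homozygotes. Without a minimum level, and with a minimum of 4 reads, lower genes in the vas deferens numbered 12 and 11 (Hoxa-/-), 15 and 14 (Hoxa-/-d+/-) and 6 and 5 (Hoxa+/-d-/-), from a larger set of genes. Shares over all measured genes were computed only for the main counts and within lane 2.

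Leaving out each library in turn gave, for genes apart by 2-fold in the uterus, 2 to 6 lower in the Hoxa homozygotes and 3 to 12 higher and 0 to 1 lower in the Hoxd homozygotes, and in the vas deferens 2 to 5 lower in the Hoxa and 0 to 3 higher and 0 to 1 lower in the Hoxd homozygotes. A rule with fewer libraries is looser for every gene, so these counts are not comparable with the shares given for the full rule. Within lane 2, an alternative chosen after seeing the data, 1 was higher and 6 lower (Hoxa) or 6 higher and 1 lower (Hoxd) in the uterus, and 4 lower (Hoxa) or 4 higher and 1 lower (Hoxd) in the vas deferens. The cause of these differences was not tested. Values without the library shifts left all 28 counts within 1.5 times. No paired analysis was possible because each group had 1 library. Genes with few reads, such as Cxcl2 in WT uterus (2 reads), are limited by depth.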
